A study of Mus musculus with 31 samples.

Results

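The genes described here were those whose RNA was higher in yolk sacs without Etv2 than in wild type, while the compound heterozygote, which carries 1 null allele and 1 allele without an enhancer, stayed below a small threshold. They were chosen by measured values: the mean log2(CPM + 1) of the *Etv2* Δ/Δ libraries was at least 1 above that of the *Etv2* +/+ libraries, the lowest Δ/Δ library lay above the highest +/+ library, the mean of *Etv2* enhΔ/Δ was less than 0.5 above +/+, and the mean over all 31 libraries was at least 2. CPM is the count of reads of a gene scaled to a common library size. Of 18477 genes in the table, 10532 had a mean of at least 2, 244 of them had the difference of 1, 107 of these had no overlap, and 51 remained as members after the enhΔ/Δ condition. A symbol starting with Col or Cldn would have been dropped, which removed 0 of the 51 genes. The Δ/Δ, enhΔ/Δ and +/+ values below are therefore a description, and no test is given on them for the members.

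Each library was made from the yolk sac of 1 somite-matched mouse embryo of mixed strain at embryonic day 8.5. The Δ allele lacks the exons that encode the DNA-binding domain of *Etv2*, removed by a Cre active in the female germline, and the enhΔ allele lacks an enhancer upstream of the gene. The groups were *Etv2* +/+ (n = 6), +/enhΔ (n = 4), +/Δ (n = 6), enhΔ/enhΔ (n = 5), enhΔ/Δ (n = 5) and Δ/Δ (n = 5). Both alleles are germline changes present in every cell of the embryo and yolk sac, so the libraries do not separate the layer of the yolk sac in which a change arose.

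Etv2 is an ETS transcription factor that mesodermal progenitors need to become blood and endothelium. The yolk sac at this stage is a visceral endoderm, which absorbs and metabolises nutrients, lying against an extraembryonic mesoderm that gives rise to blood islands, mesothelium and smooth muscle. In bulk RNA a gene can be high because the cells that express it make up more of the tissue or because each cell holds more of its RNA, and these cannot be told apart here.

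*Etv2*, the targeted gene, was at 0 to 0.491 CPM in +/+ (10 reads in all 6 libraries), 0 to 0.158 in +/enhΔ and 0 to 0.388 in enhΔ/enhΔ. In the genotypes with a Δ allele it was at 0.729 to 3.59 CPM in +/Δ (120 reads), 0.220 to 2.98 in enhΔ/Δ (92 reads) and 0.220 to 2.52 in Δ/Δ (84 reads). Counts per gene do not show which exons the reads came from, so they do not check the deletion, and the levels did not fall in the order of the alleles.

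The libraries held 2671612 to 22396340 reads in genes (median 13894962), so that 1 read was 0.0440 to 0.378 CPM, and the shallowest library was Δ/Δ replicate 1. Erythroid markers summed to 7.82 to 69.5 CPM in Δ/Δ and 1492 to 5554 CPM in +/+, with all 10 of 10 markers lower and no overlap. Endothelial markers summed to 101 to 156 CPM in Δ/Δ and 269 to 411 CPM in +/+, with 8 of 10 lower without overlap. The sum of the extraembryonic mesoderm and mesothelium markers went the other way, with 1361 to 1853 CPM in Δ/Δ, 1227 to 1560 in enhΔ/Δ and 792 to 1034 in +/+. Of the 11 measured markers in that sum, 3 were higher in Δ/Δ than in +/+ without overlap. The visceral endoderm markers overlapped (38211 to 66665 and 39946 to 49172 CPM). The part of these cell types in the members' levels was not tested. In 4 libraries labelled male, Δ/Δ replicates 1 and 2 and +/Δ replicates 2 and 3, *Xist* stood at 434 to 645 CPM and the Y-linked genes summed to at most 0.258 CPM, so the label and the reads differed. *Ftl2-ps*, a ferritin pseudogene, was at 36.5 to 50.2 CPM in 8 libraries, +/+ replicates 2 to 6 and +/enhΔ replicates 2 to 4, and at 0 to 0.515 CPM in the other 23. The 5 Δ/Δ libraries were among the 23, so this difference and genotype cannot be told apart in the comparison with +/+.

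The promoters of the members with the largest difference are shown because all members met the same conditions, each gene on its own values. Of the 51 members, 35 had an entry in the RefSeq promoter table (GRCm38.p6), which runs from 250 bases before to 50 bases after a start site, and the first entry of a gene was used. *Hdac9*, *Alox12b*, *Bmf* and *Crebrf* are the first members in order of difference whose sequence could be printed. The motifs were chosen with results of these data known. Capitals mark matches, on either strand, to the E-box CAGCTG, to the core promoter motif TATAAA and to the E-box CACGTG, which were the only searched motifs found in these 4 windows.
Hdac9 (chr12:34917046-34917345, - strand): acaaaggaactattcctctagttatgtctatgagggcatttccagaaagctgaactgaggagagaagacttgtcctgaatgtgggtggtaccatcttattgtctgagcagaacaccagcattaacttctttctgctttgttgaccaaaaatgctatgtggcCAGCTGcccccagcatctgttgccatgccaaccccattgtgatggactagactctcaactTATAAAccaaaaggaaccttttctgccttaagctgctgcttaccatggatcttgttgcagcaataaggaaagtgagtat
Alox12b (chr11:69156822-69157121, + strand): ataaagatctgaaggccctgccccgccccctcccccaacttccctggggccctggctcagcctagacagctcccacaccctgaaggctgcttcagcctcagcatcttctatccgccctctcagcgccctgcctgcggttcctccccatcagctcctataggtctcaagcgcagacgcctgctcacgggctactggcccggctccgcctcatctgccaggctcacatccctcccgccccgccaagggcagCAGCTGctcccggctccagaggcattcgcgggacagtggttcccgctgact
Bmf (chr2:118544538-118544837, - strand): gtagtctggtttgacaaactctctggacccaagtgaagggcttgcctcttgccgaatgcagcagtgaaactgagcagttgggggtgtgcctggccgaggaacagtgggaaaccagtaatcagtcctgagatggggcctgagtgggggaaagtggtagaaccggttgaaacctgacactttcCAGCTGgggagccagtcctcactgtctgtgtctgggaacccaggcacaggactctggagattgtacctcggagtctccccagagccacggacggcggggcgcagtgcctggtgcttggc
Crebrf (chr17:26715400-26715699, + strand): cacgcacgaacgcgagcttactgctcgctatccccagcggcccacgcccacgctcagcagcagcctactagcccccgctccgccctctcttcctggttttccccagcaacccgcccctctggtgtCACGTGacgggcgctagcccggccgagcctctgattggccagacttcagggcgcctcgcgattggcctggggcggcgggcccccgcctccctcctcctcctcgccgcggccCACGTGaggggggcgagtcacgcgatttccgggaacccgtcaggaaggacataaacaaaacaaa

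The *Hdac9* window held CAGCTG at -89 and TATAAA at -29 from the start site, *Alox12b* held CAGCTG at -1, *Bmf* held it at -69, and *Crebrf* held CACGTG at -125 and again at -14. Over all 35 promoters, CAGCTG was in 8 (22.9%), against 14.2% of the 8234 promoters of genes with a mean of at least 2. CACGTG, added to the search after the sequences had been seen, was in 2 (5.71%) against 10.8%. The ETS core CCGGAAG was in 3 promoters (8.57%), those of *Zfpl1*, *Auh* and *Frs2*, against 20.1%. The GATA site AGATAA was in 0 of 35, against 5.85%. The other letters searched were GGAATG (TEAD) in 3 promoters against 12.0%, GTAAACA (forkhead) in 2 against 2.39%, TGACGTCA (cyclic AMP response element) in 1 against 3.56%, TATAAA in 2 against 6.32%, AGGTCA (nuclear receptor half-site) in 2 against 11.4% and TACGTG (hypoxia response element) in 0 against 3.74%. No motif overlapped another in the windows printed. The median GC content was 62.7% over the members' promoters and 61.7% over the 8234.

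The mean of the 51 members was 5.52 ± 0.14 on the log2(CPM + 1) scale in Δ/Δ (SD, n = 5), with single libraries from 5.33 to 5.72. It was 4.64 ± 0.09 in enhΔ/Δ (n = 5), 4.45 ± 0.09 in +/Δ (n = 6), 4.43 ± 0.07 in +/enhΔ (n = 4), 4.37 ± 0.14 in enhΔ/enhΔ (n = 5) and 4.29 ± 0.21 in +/+ (n = 6). Every Δ/Δ library lay above the highest of the other 26, an enhΔ/Δ library at 4.73. The enhΔ/Δ libraries, at 4.53 to 4.73, lay above all +/+ libraries, which reached 4.49, but the rule took genes with low +/+ values. The lowest enhΔ/Δ library, at 4.530, was below the highest +/Δ library, at 4.532, and the highest enhΔ/enhΔ library, at 4.557. Among +/enhΔ, +/Δ, enhΔ/enhΔ and +/+ the single libraries overlapped. The 1 +/+ library with few *Ftl2-ps* reads was at 4.43, and the other 5 had a mean of 4.27. Together the members took 0.454 ± 0.044% of reads in Δ/Δ and 0.201 ± 0.022% in +/+. Over all 18477 genes the median Δ/Δ minus +/+ difference was -0.01 on the scale that the authors had already normalized.

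**Figure D1:**
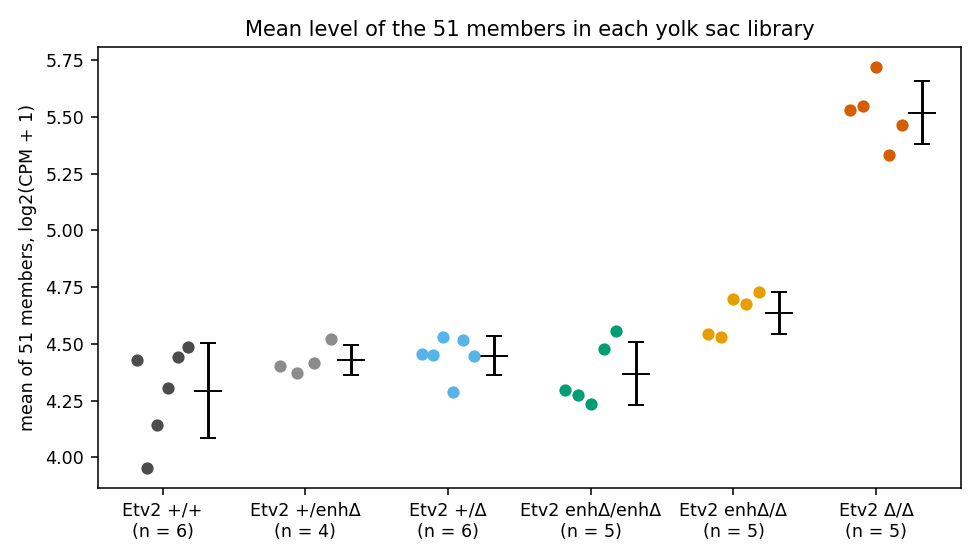
Mean of the 51 members on the log2(CPM + 1) scale (vertical axis, not from 0) in each library (points) of the 6 genotypes, with the group mean and SD (bars to the right). The 5 Δ/Δ libraries lie between 5.33 and 5.72 and all others at or below 4.73.

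The name of the group, genes gained in the null alone, rests on the threshold of 0.5. All 51 members also had a higher mean in enhΔ/Δ than in +/+, with a median difference of 0.36 (range 0.07 to 0.49), against a median of 1.17 for Δ/Δ minus +/+. Of the genes with a mean of at least 2, 50.3% were higher in enhΔ/Δ than in +/+, but the rule took genes with low +/+ values, so nothing is read from the count of 51. Another 52 genes met every other condition but stood at 0.5 or more in enhΔ/Δ. The values ran on without a gap at both thresholds. *Ptgs2*, *Mtm1* and *Cdo1* were just inside the first, at 1.01, 1.01 and 1.01, and *Rab32*, *Dubr* and *Muc13* just outside at 0.99, 0.99 and 0.99. At the second, *Gnpda1*, *Ptgs2* and *Xylb* were inside at 0.49, 0.48 and 0.48, and *Ccn4*, *Stox2* and *Slc39a13* outside at 0.51, 0.52 and 0.53. With a limit of 0.3 in enhΔ/Δ, 16 of the 51 stayed. The enhΔ/Δ mean was above the +/enhΔ, +/Δ and enhΔ/enhΔ means in 43, 39 and 42 of the 51 members, beside 48.5%, 50.6% and 49.5% of the genes with a mean of at least 2. The rule used the enhΔ/Δ values, and all members were measured in the same libraries, so nothing is read from these counts either.

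**Figure D2:**
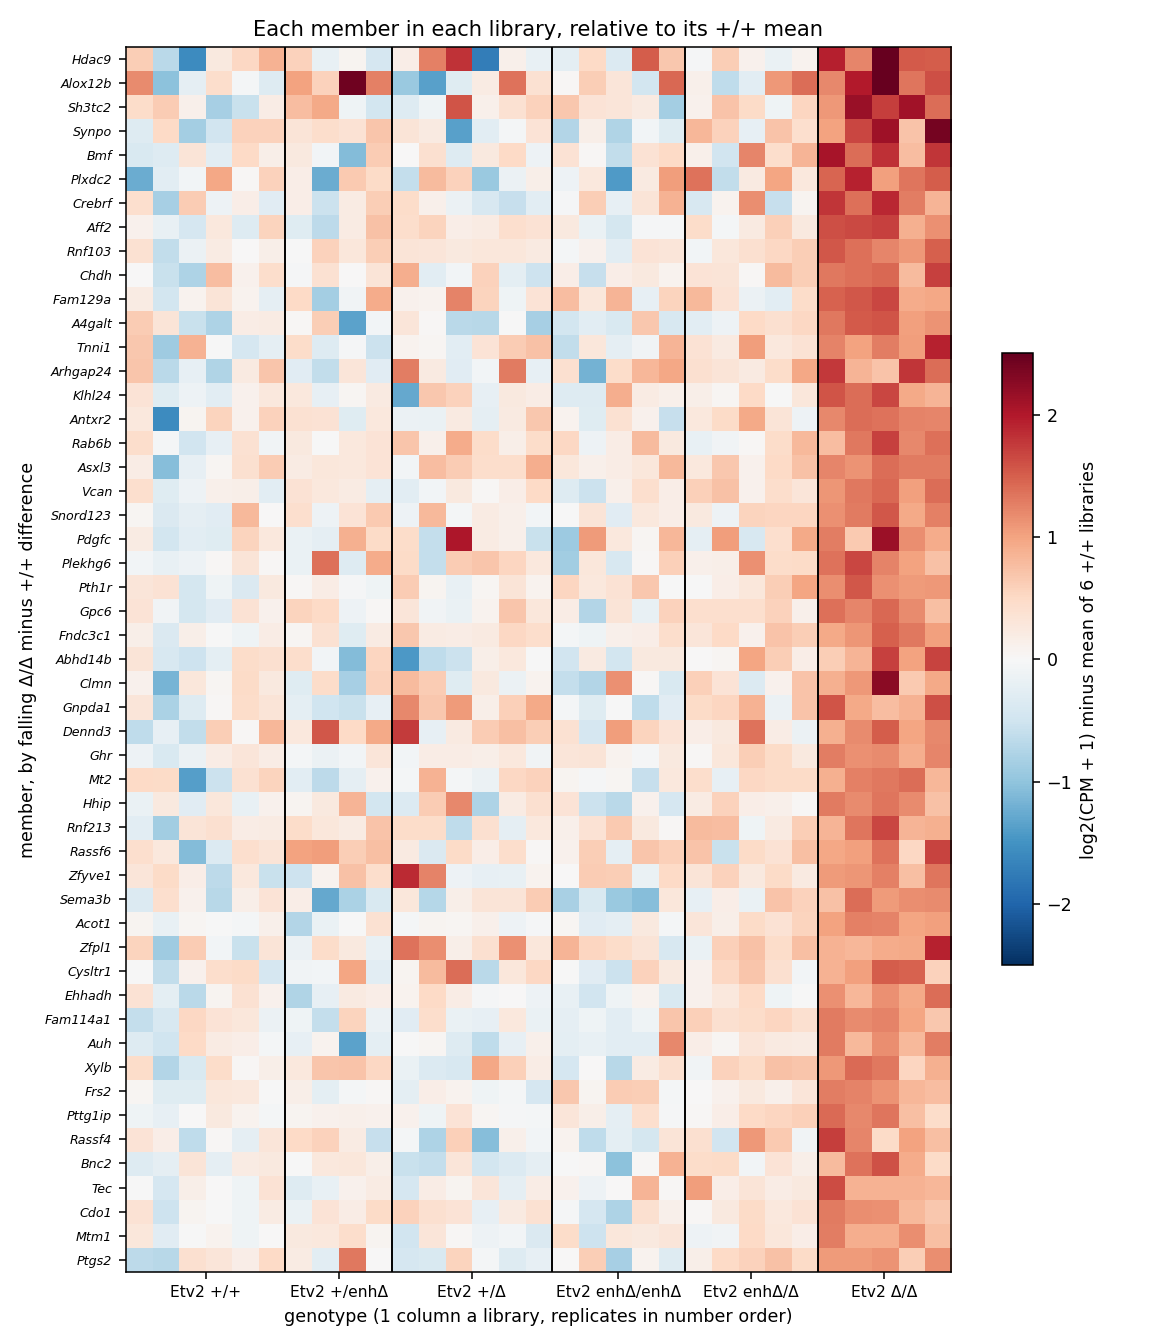
Each member (rows, by falling Δ/Δ minus +/+ difference) in each of the 31 libraries (columns, by genotype), as log2(CPM + 1) minus the mean of the 6 +/+ libraries. The Δ/Δ columns are red for all 51 members, as the rule requires, and the enhΔ/Δ columns are mostly pale red.

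The genotypes +/enhΔ, +/Δ and enhΔ/enhΔ entered the rule only through the mean over all 31 libraries, and are called not used below. The Δ/Δ libraries were used to choose the members, so the Δ/Δ values against these genotypes are given without a test. All 5 Δ/Δ libraries lay above every +/enhΔ library in 41 of 51 members, where 5.27% of the 10532 genes with a mean of at least 2 did so. Against +/Δ this held for 33 members, beside 3.49% of genes, and against enhΔ/enhΔ for 34, beside 4.04%. The median difference of the members was 1.11 from +/enhΔ (range 0.25 to 1.77), 1.04 from +/Δ (0.35 to 1.87) and 1.15 from enhΔ/enhΔ (0.66 to 1.93), and 0 members were below 0 in any of them. Over all genes the medians were -0.01, -0.01 and -0.02. All +/Δ, enhΔ/enhΔ and Δ/Δ libraries had few *Ftl2-ps* reads.

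The rule had already placed each member's Δ/Δ libraries above +/+ and limited its enhΔ/Δ mean, so nothing is read from the next count. In 18 of 51 members the lowest Δ/Δ library was above all 26 other libraries, beside 0.627% of the genes with a mean of at least 2. These were *Aff2*, *Rnf103*, *A4galt*, *Antxr2*, *Asxl3*, *Vcan*, *Snord123*, *Pth1r*, *Gpc6*, *Fndc3c1*, *Ghr*, *Rnf213*, *Sema3b*, *Acot1*, *Ehhadh*, *Frs2*, *Cdo1* and *Mtm1*. The members with the largest differences, such as *Hdac9*, *Alox12b* and *Sh3tc2*, were not among them, since single libraries of other genotypes reached into the Δ/Δ range.

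**Figure D3:**
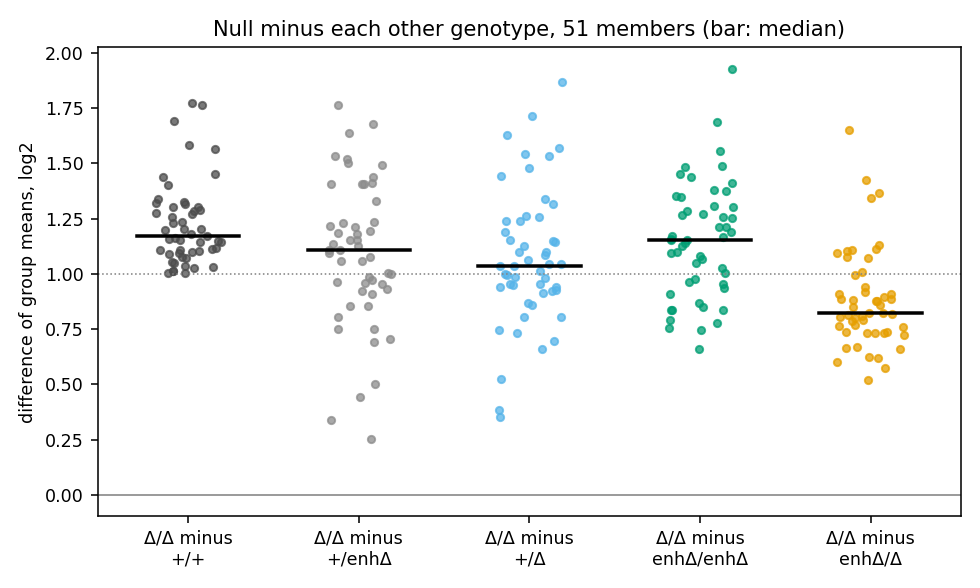
Difference of group means, Δ/Δ minus each other genotype, on the log2 scale (vertical axis), 1 point a member and a bar at the median. The medians against the 3 genotypes the rule did not use are 1.11, 1.04 and 1.15, and no point lies below 0 there.

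*Hdac9*, which had the largest difference, encodes a class IIa histone deacetylase that represses MEF2 targets (chr12:34732451-35213754 (- strand), mm9). It was at 20.4, 12.01, 34.3, 15.1 and 14.98 CPM in the 5 Δ/Δ libraries and from 0.884 to 9.13 (median 6.305) in +/+. The means were 19.4 ± 8.87 and 5.45 ± 3.17 CPM (SD), a ratio of 3.55, and 1 Δ/Δ library at 34.3 CPM stood above the other 4. In +/Δ the range was 0.683 to 18.5 CPM, overlapping Δ/Δ. *Crebrf*, a regulator of the CREB family that acts in the unfolded protein response, was at 50.6, 37.5, 53.9, 35.3 and 25.9 CPM in Δ/Δ and from 7.37 to 22.2 (median 14.2) in +/+, with 10.3, 14.9, 32.2, 9.01 and 14.7 CPM in enhΔ/Δ. It had the smallest enhΔ/Δ difference of all members, 0.07, although 1 enhΔ/Δ library, at 32.2 CPM, lay within the Δ/Δ range. *Aff2*, a nuclear protein of the FMR2 family on the X chromosome (chrX:66613469-67121212 (+ strand)), separated fully, with 113, 116, 122, 68.8 and 82.1 CPM in Δ/Δ and at most 61.2 CPM in any of the other 26 libraries. *Asxl3*, a component of Polycomb-associated complexes, was at 36.7 to 44.8 CPM in Δ/Δ and 7.28 to 26.01 in +/+. *Bnc2*, a zinc finger protein of mesenchymal cells, was at 62.5 to 137 and 35.6 to 55.8 CPM.

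*Bmf*, a BH3-only protein that promotes apoptosis (chr2:118354493-118375423 (- strand)), was at 27.96, 17.4, 23.6, 11.01 and 22.99 CPM in Δ/Δ and from 4.33 to 8.87 (median 5.795) in +/+. The ratio of the means was 3.33, with 20.6 ± 6.55 and 6.19 ± 1.89 CPM, and enhΔ/Δ, at 6.66, 3.99, 15.4, 8.497 and 11.6 CPM, overlapped both. *Klhl24*, an adaptor of a cullin ubiquitin ligase, was at 46.1 to 82.5 CPM in Δ/Δ and 20.1 to 31.96 in +/+. *Fam129a*, induced by stress of the endoplasmic reticulum, was at 30.96 to 52.4 and 11.1 to 19.8 CPM. *Mt2*, a metallothionein that binds zinc and copper, was at 220.02 to 326 and 46.8 to 179.9 CPM, and *Rnf213*, a large ubiquitin ligase linked to moyamoya disease in humans, at 34.2 to 61.04 and 9.77 to 24.97 CPM.

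No member was on the list of the p53 response, a pathway that includes cell death genes. Of its 15 genes, 1 was higher and 2 were lower in Δ/Δ than in +/+ by limma (adjusted p under 0.05), with a median of -0.06. Across all genes 5.60% were called higher and 7.69% lower in this comparison.

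Several members are metabolic enzymes, among them enzymes of mitochondria and peroxisomes. *Acot1*, an acyl-CoA thioesterase of the cytosol (chr12:85350448-85358621 (+ strand)), was at 122, 144, 143, 119.5 and 123 CPM in Δ/Δ and from 52.9 to 65.5 (median 60.6) in +/+. Its means were 130.3 ± 12.2 and 60.1 ± 4.32 CPM, and the enhΔ/Δ libraries, at 73.9, 66.1, 84.1, 77.5 and 88.9 CPM, lay above every +/+ library. *Acot1* has near-identical paralogs whose reads the counting could divide or share, so its level is uncertain. *Ehhadh*, the bifunctional enzyme of peroxisomal fatty acid oxidation, was at 172, 139, 172, 149.9 and 205 CPM in Δ/Δ and at most 109.7 CPM elsewhere. *Auh*, which acts in leucine breakdown, was at 22.9 to 32.5 CPM in Δ/Δ and 8.72 to 18.5 in +/+.

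Among the other genes of the fatty acid list, *Acot2*, *Acacb* and *Cpt2* were higher and *Acaca* was lower in Δ/Δ than in +/+ (limma). Over all genes 5.60% were higher and 7.69% lower. None of these 4 list genes was called in enhΔ/Δ minus +/+. Set directly against enhΔ/Δ, only *Acacb* of the 4 was called, at 1.34 (SE 0.36, limma adjusted p = 0.023). The median of the other 18 genes of the list was 0.29 in Δ/Δ and 0.28 in enhΔ/Δ. *Acot2* differed by 1.55 (SE 0.40, limma adjusted p = 0.0081) and shares sequence with *Acot1*. *Cpt2*, of the carnitine shuttle into mitochondria, differed by 0.60 (SE 0.13, limma adjusted p = 0.0019). *Acaca*, which makes malonyl-CoA for fatty acid synthesis, differed by -0.60 (SE 0.16, limma adjusted p = 0.0089).

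*Cdo1*, which oxidises cysteine, was at 129.99, 117, 116, 91.9 and 83.2 CPM in Δ/Δ and from 36.01 to 67.5 (median 52.97) in +/+. Of the other 8 measured genes of tyrosine and sulphur amino acid breakdown, 0 were called in Δ/Δ or enhΔ/Δ, with a median of 0.44 in Δ/Δ. *Chdh*, choline dehydrogenase of mitochondria, was at 20.4 to 39.7 CPM in Δ/Δ and 6.29 to 20.1 in +/+, and its exons overlap *Cacna1d* on the opposite strand. *Xylb*, a xylulokinase, was at 29.8 to 55.4 and 11.8 to 28.2 CPM. *Abhd14b*, of the alpha/beta hydrolase fold, was at 25.3 to 55.1 CPM in Δ/Δ and 10.999 to 22.6 in +/+.

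*Gnpda1*, which turns glucosamine-6-phosphate into fructose-6-phosphate, and *Zfpl1* had the smallest differences of Δ/Δ from +/Δ, 0.38 and 0.35 on the log2 scale. The libraries of *Gnpda1* were at 114, 74.4, 65.3, 70.6 and 119 CPM in Δ/Δ, 53.03, 55.2, 70.6, 34.4 and 63.3 in enhΔ/Δ and from 42.3 to 88.6 (median 67.8) in +/Δ, and at from 21.5 to 52.8 (median 42.9) in +/+, 31.7, 26.4, 25.7 and 32.8 in +/enhΔ and 36.8, 30.7, 37.6, 24.002 and 31.1 in enhΔ/enhΔ. The 3 groups that carry the Δ allele were thus the 3 highest by mean. In the genotypes the rule did not use, +/Δ was 1.16 above +/enhΔ (SE 0.19) and enhΔ/enhΔ was -1.02 from +/Δ (SE 0.18). Neither difference passed at an adjusted p of 0.05 by limma over all genes, with 0.064 and 0.072, and every +/Δ library lay above every +/enhΔ and enhΔ/enhΔ library. Without +/Δ replicate 4, the lowest of its group, both passed (limma adjusted p = 0.010 and 0.021). Leaving out the lowest library of the higher group raises the difference, so nothing is read from this pass. Over all the fits tried the limma adjusted p ran from 0.010 to 0.29 and from 0.021 to 0.38.

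**Figure D4:**
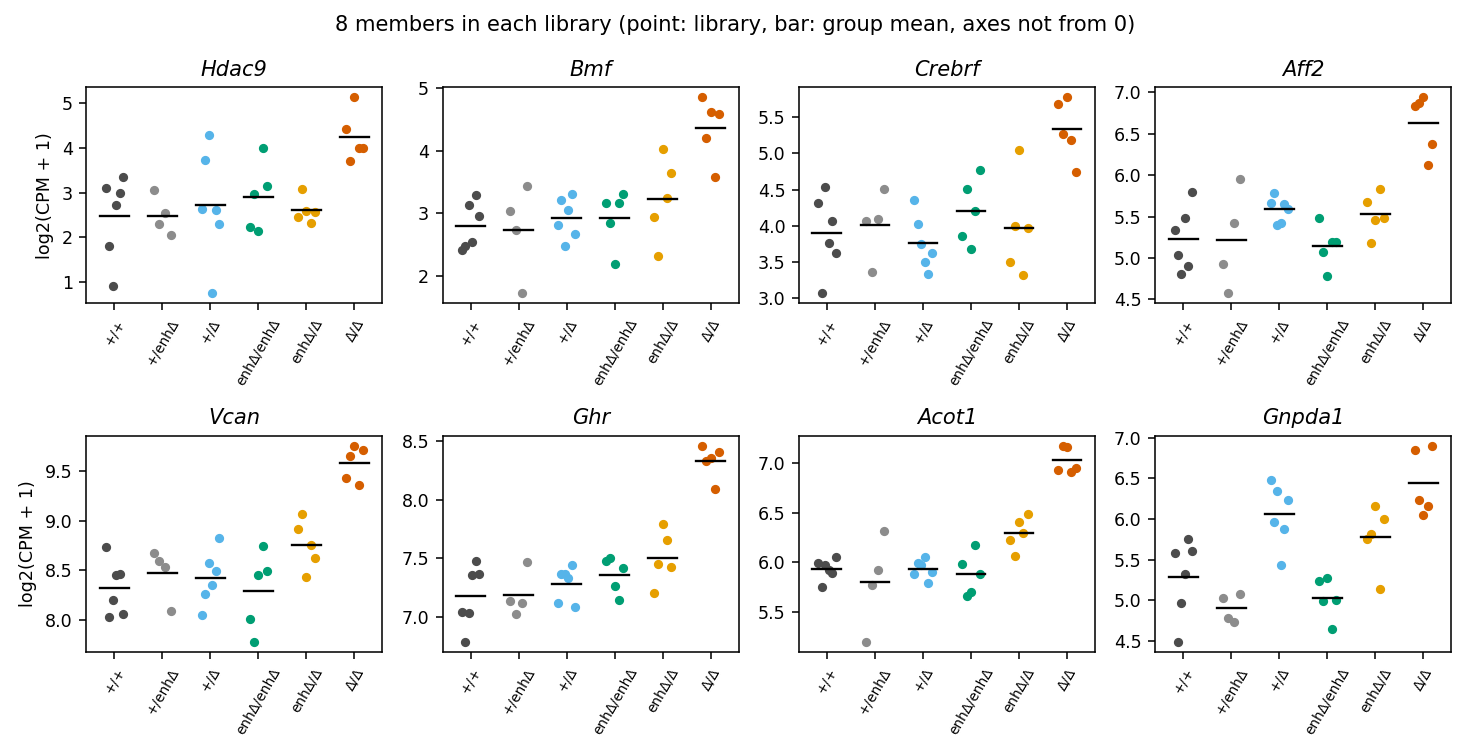
8 members in each library (points) with group means (bars), on the log2(CPM + 1) scale with axes not starting at 0. *Aff2*, *Vcan*, *Ghr* and *Acot1* have all 5 Δ/Δ libraries above the other 26, *Hdac9*, *Bmf* and *Crebrf* overlap with single libraries of other genotypes, and *Gnpda1* is also high in +/Δ.

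*Ghr*, the growth hormone receptor (chr15:3267760-3533492 (- strand)), was at 351, 320.3, 325, 271 and 339 CPM in Δ/Δ and from 109.8 to 177 (median 147) in +/+, with at most 220.4 CPM outside Δ/Δ. *Frs2*, the docking protein of FGF receptors, was at 319.7, 310.1, 289, 235 and 224 CPM in Δ/Δ and 106 to 161 in +/+, and the enhΔ/enhΔ libraries reached 209 CPM. *Pth1r*, receptor of parathyroid hormone and its related peptide, was at 71.8, 94.1, 70.7, 67.3 and 68.1 CPM in Δ/Δ and 22.98 to 40.7 in +/+. It is also a marker of parietal endoderm, whose 8 listed genes summed to 558 to 1089 CPM in Δ/Δ, 908 to 1207 in enhΔ/Δ and 590 to 726 in +/+, and the part of that tissue was not tested. *Cysltr1*, the receptor of cysteinyl leukotrienes, was at 25.6 to 50.2 CPM in Δ/Δ and 10.7 to 23.97 in +/+. *Pdgfc*, a ligand of platelet-derived growth factor receptors, and *Tec*, a tyrosine kinase of blood cells, were at 3.83 to 12.6 and 21.4 to 38.2 CPM in Δ/Δ. In +/+ they were at 1.25 to 3.496 and 8.43 to 15.1 CPM. *Rassf4* and *Rassf6*, of the Ras association domain family, differed by 1.03 and 1.11. *Pdgfc* also shares exonic bases with a gene model on the opposite strand.

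*Hhip*, a membrane protein that binds hedgehog ligands and limits the signal (chr8:82490014-82581905 (- strand)), was at 42.7, 39.6, 43.9, 39.3 and 28.6 CPM in Δ/Δ and from 13.7 to 20.8 (median 16.5) in +/+, with 19.7, 25.7, 18.9, 18.5 and 17.3 in enhΔ/Δ. It is itself a target of the pathway. Beside 5.60% of all genes higher and 7.69% lower, 5 of the other 15 genes of the hedgehog list were higher and 0 lower in Δ/Δ than in +/+. They were the ligand *Ihh*, made by visceral endoderm, the receptor *Ptch1*, the effector *Gli1*, the mesodermal target *Foxf2*, and *Sufu*. *Ptch1* differed by 0.65 (SE 0.15, limma adjusted p = 0.0028), *Gli1* by 1.35 (SE 0.33, adjusted p = 0.0047 by limma) and *Foxf2* by 1.22 (SE 0.32, limma adjusted p = 0.0094). In enhΔ/Δ 0 of the 15 were called, with 0.336% of all genes higher and 0.990% lower. Set directly against enhΔ/Δ, Δ/Δ was higher in 2 of the 15, *Ptch1* at 0.68 (SE 0.15, limma adjusted p = 0.0041) and *Smo* at 0.56 (SE 0.16, limma adjusted p = 0.034), where 1.55% of all genes were called higher and 3.36% lower.

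*Sema3b*, a secreted semaphorin, was at 10.2, 16.6, 13.1, 13.99 and 14.4 CPM in Δ/Δ and 3.18 to 8.04 in +/+. *Plxdc2*, a transmembrane protein with a plexin repeat, was at 13.4 to 25.8 and 1.99 to 12.7 CPM. Of the other 18 genes of the semaphorin and plexin list, 4 were higher (*Sema3f*, *Sema5a*, *Nrp1*, *Nrp2*) and 2 were lower (*Sema3g*, *Plxnd1*) in Δ/Δ, beside 5.60% and 7.69% of all genes. In enhΔ/Δ 2 of the 18 were higher and 0 lower, and their median was 0.20, against 0.17 in Δ/Δ. Directly against enhΔ/Δ, 1 was higher and 2 were lower in Δ/Δ. *Plxnd1*, the receptor of endothelial cells, fell by 4.63 on the log2 scale (SE 0.31, limma adjusted p = 4.18e-13), beside the lower endothelial markers.

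*Alox12b*, a lipoxygenase of the skin barrier (chr11:68970491-68983294 (+ strand)), was at 6.42, 11.7, 19.5, 7.200 and 8.88 CPM in Δ/Δ and from 0.575 to 6.32 (median 1.95) in +/+. In +/enhΔ it was at 5.48, 3.803, 16.5 and 6.697 CPM, and 2 of these 4 libraries were within the Δ/Δ range. *Ptgs2*, the inducible cyclooxygenase, was at 36.3, 36.4, 37.6, 26.3 and 38.8 CPM in Δ/Δ and from 10.1 to 24.01 (median 19.97) in +/+, and 1 +/enhΔ library was at 43.5 CPM. Of the other 11 genes of prostaglandin synthesis and reception, 0 were higher in Δ/Δ, and 1, *Hpgd*, which inactivates prostaglandins, fell by 1.59 on the log2 scale (SE 0.49, limma adjusted p = 0.027). Over all genes 5.60% were higher and 7.69% lower.

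Matrix and surface proteins were led by *Vcan*, a large chondroitin sulphate proteoglycan (chr13:89794915-89882117 (- strand)). It was at 690.4, 802, 863, 655 and 839 CPM in Δ/Δ and from 260.2 to 427 (median 321) in +/+, with 481, 534, 345, 432 and 395 CPM in enhΔ/Δ. The means were 769.7 ± 92.2, 325 ± 63.8 and 438 ± 73.7 CPM, and all 5 Δ/Δ libraries were above the other 26. *Gpc6*, a glypican of the cell surface, was at 83.5, 75.2, 87.3, 72.9 and 53.9 CPM in Δ/Δ and 22.98 to 40.8 in +/+. *Antxr2*, which binds collagen and laminin and is also an anthrax toxin receptor, was at 26.5, 30.4, 29.5, 26.9 and 26.6 CPM in Δ/Δ and 2.97 to 16.6 in +/+. *A4galt*, which makes the glycolipid globotriaosylceramide, was at 36.1 to 52.8 and 9.61 to 27.1 CPM. *Fndc3c1*, a protein with fibronectin type III domains on the X chromosome, was at 279, 308, 404, 358 and 293 CPM in Δ/Δ and 111 to 163 in +/+.

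Of the matrix list's other 45 measured genes, 12 were higher and 1 lower in Δ/Δ, and 9 were higher in enhΔ/Δ. The median difference of the 45 was 0.55 in enhΔ/Δ, against 0.47 in Δ/Δ. Over all genes 5.60% were higher and 7.69% lower in Δ/Δ, and 0.336% were higher in enhΔ/Δ. *Postn* differed by 2.00 in Δ/Δ (SE 0.34, limma adjusted p = 6.9e-05) and by 1.79 in enhΔ/Δ (SE 0.33, limma adjusted p = 0.0012). It is also one of the mesothelial and mesenchymal markers, whose sum was higher in both genotypes.

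Cytoskeletal genes included *Synpo*, which bundles actin in podocytes and dendritic spines. It was at 21.9, 35.5, 48.9, 17.8 and 58.8 CPM in Δ/Δ and from 5.303 to 16.01 (median 11.7) in +/+, and enhΔ/Δ, at 8.93 to 19.3 CPM, overlapped with the lowest Δ/Δ library. Of the other 13 genes of smooth muscle and contractile cytoskeleton, 5 were higher (*Acta2*, *Tpm2*, *Lmod1*, *Des*, *Cald1*) and 0 lower in Δ/Δ, beside 5.60% and 7.69% of all genes. In enhΔ/Δ 0 of the 13 were called, but their median was 0.26, against 0.25 in Δ/Δ. Directly against enhΔ/Δ, 0 were higher and 1 was lower in Δ/Δ. *Tnni1*, the troponin I of slow muscle and fetal heart, was at 18.9, 15.8, 19.4, 16.4 and 30.996 CPM in Δ/Δ and from 3.54 to 14.2 (median 6.74) in +/+.

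*Tnni1* is itself a heart marker, and the 10 measured heart genes summed to 51.01 to 166 CPM in Δ/Δ and 13.9 to 77.8 in +/+. The highest sum was that of Δ/Δ replicate 5, where *Tnni1* was also highest at 30.996 CPM. Of the other 19 measured genes of the heart muscle list, 7 were higher and 1 was lower in Δ/Δ than in +/+ by limma, with a median of 1.02. In enhΔ/Δ 0 of the 19 were called, and the median was 0.14. Directly against enhΔ/Δ, only 1 was called higher and 0 lower in Δ/Δ, with a median of 0.80. Over all genes 5.60% were higher and 7.69% lower in Δ/Δ. Whether heart tissue in the samples was involved was not tested. *Arhgap24*, an activator of GTP hydrolysis by Rac, and *Plekhg6*, a guanine nucleotide exchange factor, were at 5.12 to 11.8 and 8.62 to 17.6 CPM in Δ/Δ and at 1.22 to 5.06 and 4.12 to 6.24 in +/+. *Clmn*, a membrane protein with actin-binding domains, was at 12.96 to 41.4 CPM in Δ/Δ and 2.97 to 11.4 in +/+.

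*Sh3tc2*, an endosomal adaptor of Schwann cells, was at 8.31, 18.7, 13.7, 17.9 and 10.6 CPM in Δ/Δ and from 1.49 to 5.84 (median 3.92) in +/+. *Rab6b*, a Golgi GTPase, was at 77.8 to 149 and 32.02 to 61.7 CPM, and *Rnf103*, a ubiquitin ligase of the endoplasmic reticulum, at 202, 179.5, 161, 146 and 194 CPM in Δ/Δ and 44.2 to 90.1 in +/+. *Dennd3*, *Zfyve1*, *Mtm1*, *Zfpl1*, *Pttg1ip* and *Fam114a1* differed by 1.01 to 1.15. *Zfpl1* overlaps exons of gene models on both strands. The member named *Snord123* in the annotation is a lincRNA model of 2 exon blocks, at 42.7, 47.7, 56.96, 37.1 and 46.7 CPM in Δ/Δ and 14.5 to 33.96 in +/+.

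Per kilobase of exon, the members spanned a wide range in Δ/Δ, from 0.982 CPM per kilobase for *Arhgap24* to 496 for *Mt2*. The next were *Pttg1ip* at 122, *Acot1* at 83.3 and *Cdo1* at 70.3. The low members rest on few reads, since 1 read was worth up to 0.378 CPM.

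The members were spread over 18 autosomes and the X chromosome in the mm9 annotation, with 0 on chromosome 7. Chromosome 18 held 5 (9.80% of members, 2.58% of genes with a mean of at least 2), *Sh3tc2*, *Synpo*, *Asxl3*, *Gnpda1* and *Cdo1*, and X held 4 (7.84% and 3.75%). *Fndc3c1* and *Cysltr1* lay 88945 bases apart on X, and *Zfyve1* and *Acot1* 412351 bases apart on chromosome 12. The median exonic length was 5089 bases, against 3899 over genes with a mean of at least 2.

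Members were compared between +/enhΔ, +/Δ and enhΔ/enhΔ over the 15 libraries the rule did not use. None of the 51 members was called at an adjusted p of 0.05 in any of the 3 contrasts (limma), where 0.0487% of all genes were called for enhΔ/enhΔ minus +/Δ, 0.0216% for +/Δ minus +/enhΔ and 0% for enhΔ/enhΔ minus +/enhΔ. At an unadjusted p under 0.05, 4 of 51 members passed in each contrast, beside 7.02%, 6.17% and 6.66% of all genes. With voom on the recovered reads 0 members were called in each. The medians of the members were -0.07, 0.06 and 0.02.

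Outside *Gnpda1* the smallest p values were those of *Frs2*, *Alox12b*, *Synpo* and *Rassf6*. *Frs2* was higher in enhΔ/enhΔ than in +/Δ, by 0.49 (SE 0.15, limma adjusted p = 0.47), and *Aff2* was at -0.48 (SE 0.19, limma adjusted p = 0.64). *Alox12b* in +/Δ was at -1.50 from +/enhΔ (SE 0.52, limma adjusted p = 0.70) and *Synpo* in enhΔ/enhΔ at -0.90 from +/enhΔ (SE 0.33, limma adjusted p = 0.71). The standard errors of the members' differences ran from 0.10 to 0.55 on the log2 scale in these 3 contrasts. For sex by label, 0 of 51 members were called, but so were 0% of all genes, and thus neither *Xist* nor a Y-linked gene. These 0 calls therefore do not show that sex had no effect on the members. At an unadjusted limma p under 0.05, where 5.39% of all genes passed, 2 members did. *Auh* and *Hdac9* were both higher in the libraries labelled male, by 0.62 (SE 0.25) and 1.03 (SE 0.42). Of these, +/Δ replicates 2 and 3 had the reads of females and the highest *Hdac9* levels of +/Δ, 12.4 and 18.5 CPM against 0.683 to 5.24 in the other 4. With sex taken from the reads, chosen after seeing the data, the difference of *Hdac9* was 0.35 and that of *Auh* 1.05.

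Within Δ/Δ the libraries were not equal. Replicate 3 was highest in 21 of 51 members and replicate 4 lowest in 19. Replicate 5 was below the mean of the other 4 in 29 members and above it in 22, and without it the median Δ/Δ minus +/+ difference was 1.22 and 48 of the 51 stayed at 1 or more. It also had the lowest sum of extraembryonic mesoderm markers in Δ/Δ, 1361 CPM, and the lowest endothelial sum, 101 CPM. Markers of decidua and uterine natural killer cells summed to 30.0 CPM in it and to at most 10.7 CPM outside Δ/Δ, and its Y-linked genes to 7.05 CPM beside *Xist* at 639 CPM. The part of these in the members' levels was not tested. Leaving out replicate 5 raised the number of genes that met the rule from 51 to 97, of which 47 were among the 51. Without Δ/Δ replicates 1 and 2, labelled male with the reads of females, 70 genes met it and 39 of the 51 stayed.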

How the data were processed

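RNA of 31 yolk sacs was isolated by the authors with the RNeasy Plus Micro kit and made into libraries with the Trio RNA-seq kit. Alignment by the authors was to mm9 (STAR 2.5.2a). Their counts per Ensembl gene came from featureCounts, and the authors scaled library sizes with edgeR. The strand setting of the counting is not given in the sources used here.

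The deposited values are log2(CPM + 1), unit log2. The same deposited table also holds the authors' own log2 fold changes, a likelihood ratio score and p-values, which were not used. Whole reads were recovered from the values (100% whole within 0.01 reads), but the main tests were run on the deposited log2 values. No other per-sample columns were left over.

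Genotypes came from the labels. Members were found by the rule on group means, and the members, gene lists and motifs were chosen with earlier results of these data known. The genotypes the rule used only in the mean over all 31 libraries (15 libraries, 11 residual degrees of freedom) were fitted over all 18477 genes with limma 3.58.1 (R 4.3.3, trend, genotype and labelled sex, Benjamini-Hochberg adjustment, call at 0.05). A 31-library fit of the same form was used for genes of the lists that are not members, added after the values had been seen. The study's 2 processing batches are given in no label and were not modelled. P-values measure the spread between embryos. Python 3.11.15 with pandas 2.3.3 was used for the rest. Gene positions came from a GENCODE annotation of mm9 and promoters from RefSeq (GRCm38.p6), and no promoter on chromosome 18 was printed.

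Genes were named by a fixed rule: the 20 members with the largest difference, up to 4 members of each list, the 3 genes on each side of both thresholds, up to 5 members with the smallest p in each contrast, the 5 members with the highest mean, the symbols dropped, and *Etv2*, *Ftl2-ps* and the markers. The other members were named to account for all 51. Counting error alone is covered by the depth given. The limma code was tested on simulated data. Alternatives tried were other pseudocounts, normalizations, filters, thresholds, covariates and left-out libraries. The full count of the fatty acid list is not reported here.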

Additional observations from a re-analysis of the deposited data

Results flagged for a closer look

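In each genotype the lowest and the highest library were compared with the rest of the group, for the mean of the members and for the 20 members with the largest difference. Of 126 such groups, 11 (8.73%) had 1 library apart by Dixon's criterion, where chance gives about 1 in 20. For the members' mean, +/Δ replicate 4 was low at 4.29 on the log2(CPM + 1) scale, against 4.44 to 4.53 in the other +/Δ libraries. It is also the library without which *Gnpda1* passed the test, a pass from which nothing is read.

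The other 10 were values of single members, on the same scale. Low were *Synpo* in +/Δ replicate 3 (2.16, the others 3.25 to 3.85), *Chdh* in enhΔ/enhΔ replicate 2 (3.06, the others 3.72 to 3.88), *Arhgap24* in the same library (0.73, the others 2.30 to 2.86), and *Antxr2* in +/+ replicate 2 (1.99, the others 3.63 to 4.14) and in +/enhΔ replicate 3 (3.27, the others 3.84 to 3.95). High were *A4galt* in enhΔ/enhΔ replicate 4 (4.85, the others 3.72 to 3.92), *Asxl3* in enhΔ/enhΔ replicate 5 (4.93, the others 4.24 to 4.40) and *Tnni1* in enhΔ/Δ replicate 3 (4.12, the others 3.30 to 3.44). *Snord123* was high in +/+ replicate 5 (5.13, the others 3.95 to 4.36) and in +/Δ replicate 2 (5.13, the others 4.18 to 4.52). None of these was a Δ/Δ library. The rule left out genes with a Δ/Δ library inside the +/+ range, so nothing is read from this or from the share of groups with a library apart.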

How the results depend on the processing

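The members depend on their thresholds: 91 genes met the rule with a null difference of 0.8, 5 with 1.5 and 16 with an enhΔ/Δ limit of 0.3. The count was 45 with log2(CPM + 0.25), 55 after quantile normalization, and 57 and 65 with a mean of at least 1 or no filter. Leaving out 1 library gave 44 to 97, the highest without Δ/Δ replicate 5. Without +/+ replicate 2, 34 of the 51 stayed. Members called between the genotypes the rule did not use went from 0 to 1, *Gnpda1*, under some alternatives. For both +/Δ contrasts these were the 31-library fit, no sex term, genes of a mean of at least 1 and an adjusted p under 0.1. For +/Δ minus +/enhΔ, log2(CPM + 0.25) also gave 1. The 31-library fit holds the libraries on which the members were chosen, so its call is not read as a test of *Gnpda1*. Leaving out 1 of the 15 libraries gave 0 to 1 in both +/Δ contrasts, and 0 to 0 for enhΔ/enhΔ minus +/enhΔ and for sex. The count for sex has the limit given above.

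With a replicate block the differences of *Gnpda1* were 1.14 and -0.98 and 0 members were called. The numbers did not pair the libraries: over 13 same-numbered pairs r was -0.08 to 0.19, 2 exceeded 0.1, and 3 of 15 libraries correlated best with their own number. The difference of *Asxl3* between labelled sexes changed sign in the 31-library fit (-0.028). Without Δ/Δ replicate 5 and with voom, chosen after seeing the data, 17 and 18 in place of 11 of the 292 other list genes were higher in Δ/Δ than in enhΔ/Δ. Leaving out 1 Δ/Δ library moved the median difference to 1.06 to 1.13 from +/enhΔ, 1.04 to 1.10 from +/Δ and 1.08 to 1.19 from enhΔ/enhΔ, and the members with no overlap to 41 to 42, 33 to 35 and 35 to 38. Of the 292 other list genes, 80 were called higher and 12 lower in Δ/Δ than in +/+ without Δ/Δ replicate 5. In enhΔ/Δ 15 were higher and 2 lower. No share of all genes stands beside these counts, and the lists were chosen with earlier results known. Nothing about the lists is therefore read from them. The cause of these shifts was not tested.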
